A study of Mus musculus with 6 samples.

Results

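Heat shock chaperones are proteins that bind unfolded or partly folded proteins and help them fold, stay soluble or be degraded. HSP70 proteins bind short exposed stretches of a client in a cycle driven by ATP, J-domain proteins such as DNAJB1 bring clients and start ATP hydrolysis, and HSP110 proteins release the nucleotide again. HSP90 proteins act later, on nearly folded clients such as kinases and steroid receptors, small heat shock proteins hold unfolded clients without ATP, and the chaperonin HSP60 with its lid HSP10 folds proteins inside mitochondria. Heat, oxidants and misfolded protein release heat shock factor 1 (HSF1), which binds arrays of the unit NGAAN in alternating orientation and turns on the inducible members. In liver, some of these genes are also known to follow the daily feeding and body temperature rhythm.

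The 10 genes described here were the rows whose symbol was Hspa1a, Hspa1b, Hspa8, Hsp90aa1, Hsp90ab1, Hspb1, Dnajb1, Hsph1, Hspd1 or Hspe1, of 18720 rows in all. The rule uses symbols and no measured value, but the symbols were picked with earlier results of these data known. All 10 passed the filter on low values, as did 16594 rows overall. The samples were livers of 1-year-old male C57BL/6 mice on a high-fat diet. In one group (3 libraries) the mice were given R159, which the labels name by code alone. In the other (3 libraries) they were given vehicle. Both were injected into the peritoneum 2 times a week for 12 weeks, so the diet and the injections were shared, and no group on another diet was analysed here. By the series title, R159 concerns a non-canonical arm downstream of gp130, a receptor subunit that cytokines related to interleukin-6 have in common. Separate animals per library are not stated outright. The p-values therefore reflect library-to-library spread, some of which may be technical.

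Values are normalised estimated counts, that is, estimated reads per gene after the authors' scaling of each library. Estimated depth was 51.3 to 55.7 M reads in R159 libraries and 66.0 to 76.7 M reads in vehicle libraries. R159 replicate 2 stood apart, with 973 genes listed at 0 against 202 to 519 in the other libraries. Fold changes are log2 differences of value + 1, R159 minus vehicle, tested with limma and called at a Benjamini-Hochberg adjusted p under 0.05 over all tested genes. Across coding genes the fold change fell with transcript length (rho = -0.498 by Spearman's method over 11027 genes; genes do not count as replicates), so calls and counts that change once that trend is removed are given with it removed as well. Summed hepatocyte markers (Alb, Ttr, Hnf4a and 5 others) were 4546520 to 7442020 in R159 and 3670490 to 5492970 in vehicle livers, sums that are mostly Alb. Of these 8 markers 1 was called higher (Tat) and 1 lower (Hnf4a), and 0 with the length trend removed. For markers of other cells, the counts stand beside 12.8% of all tested genes called higher and 14.2% lower. With the length trend removed those shares were 9.93% and 8.74%. Of 8 erythroid and blood markers 4 were called higher, with summed levels of 41444 to 60377 in R159 and 13154 to 21901 in vehicle, and 1 of the 8 was called higher with the length trend removed. Of 9 macrophage markers 3 were called lower (15292 to 18551 in R159, 18484 to 27778 in vehicle). With the length trend removed 3 were again lower, with Cd68 in place of Csf1r. The list did not move one way, with 4 markers above 0 and 5 below. Marco and Timd4 were uncalled but higher in R159 without overlap (log2 fold change 3.07 and 2.09). Of 8 stellate cell markers 3 were lower (11034 to 24026 in R159, 16828 to 29637 in vehicle), and 1 with the length trend removed. Of 6 cholangiocyte markers 1 was higher (Krt7) and 1 lower (Cdh1), and 1 higher and 2 lower with the trend removed. Cholangiocyte sums were 2673 to 5165 in R159 and 5869 to 13861 in vehicle, sums that are mostly Spp1 and Cdh1. Krt7 and Krt19 had log2 fold changes of 1.32 and 0.98, Krt19 uncalled, and 4 of the 6 markers lay below 0. Of 8 lymphocyte markers 1 was higher (520.2 to 1259 in R159, 399 to 627 in vehicle), and of 8 sinusoidal endothelial markers 0 were called (8801 to 10255 in R159, 8111 to 11039 in vehicle; 2 higher with the trend removed). None of these markers was at 0 in all 6 libraries. Their part in the chaperone values was not tested, and in pieces of liver, fewer cells of a type and less RNA per cell cannot be told apart.

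One DNA stretch is shown first because the clearest result concerns the gene pair on either side of it. Hspd1 and Hspe1 lie head to head on mouse chromosome 1 and are read away from each other, in the RefSeq annotation of GRCm38.p6. The authors' build was mm39, so these coordinates belong to the reference and not to the deposited values. The interval between the Hspe1 start and the Hspd1 start that lies to its left, chr1:55087933-55088147, plus strand, is 215 bases long. Capitals mark the array of alternating heat shock units, TTC and GAA separated by any 2 bases.
Hspd1-Hspe1 interval: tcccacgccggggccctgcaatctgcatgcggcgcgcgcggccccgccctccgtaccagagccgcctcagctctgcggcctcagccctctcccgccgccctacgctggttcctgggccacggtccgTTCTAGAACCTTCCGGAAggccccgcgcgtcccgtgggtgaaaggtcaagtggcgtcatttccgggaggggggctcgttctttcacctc

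The array holds 4 alternating units and spans bases 89 to 72 before the Hspe1 start, and 144 to 127 before the Hspd1 start. The search was for GAA and TTC in alternation, starting with either, each separated from the next by any 2 bases, on both strands, in windows from 250 bases before to 50 bases after each start. Of 32851 RefSeq windows of mouse genes, 8 (0.0244%) held such an array, and the windows of Hspd1 and Hspe1 are counted separately among these 8 although the DNA is the same. Shorter arrays are common: 3 such units in a row occurred in 0.603% of windows and 2 units (GAANNTTC or TTCNNGAA) in 15.1%. A longer Hspd1 transcript variant starts inside the first part of Hspe1, and the gene records overlap by 96 bases. The libraries were stranded, but no source used here says whether counting used strand.

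The inducible HSP70 genes Hspa1a and Hspa1b are shown next, because their reads are hard to tell apart. They lie on chromosome 17, and the 150 bases before each start, chr17:34972157-34972306 and chr17:34959239-34959388, minus strand, GRCm38.p6, differ at 1 position. Capitals mark the pair of heat shock units, at bases 104 to 97 before the start in both genes.
Hspa1a: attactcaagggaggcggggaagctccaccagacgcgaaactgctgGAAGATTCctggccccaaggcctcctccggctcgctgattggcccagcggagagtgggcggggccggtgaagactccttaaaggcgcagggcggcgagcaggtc
Hspa1b: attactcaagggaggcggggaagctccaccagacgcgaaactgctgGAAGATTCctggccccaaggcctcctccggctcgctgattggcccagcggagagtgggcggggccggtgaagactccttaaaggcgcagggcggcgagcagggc

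RefSeq windows were at hand for 7 of the 10 genes; Hspa8, Hsp90aa1 and Hsp90ab1 have none in the table used. Hspb1 had 2 pairs of units, at bases 117 to 110 and 97 to 90 before its start. Hsph1 had 1 pair before its start and a 3-unit array after it, and the 2 windows of Dnajb1 held none of these letters. A match is a description of the sequence and not a measured binding site.

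The 10 genes did not move one way. Hspe1 was the single gene called higher in R159 livers and Hspd1 the single gene called lower, where 12.8% and 14.2% of all tested genes were called higher and lower (27% in either direction). Their median log2 fold change was 0.12, against 0.00069 over all tested genes, with 5 above 0 and 5 below. The groups did not overlap in 4 of the 10, higher in R159 for Dnajb1 and Hspe1 and lower for Hsp90ab1 and Hspd1, and in 46.2% of all tested genes (22.5% higher, 23.6% lower). Those shares are near or below the background. With the length trend removed, 2 of the 10 (Hspe1 and Dnajb1) were called higher and 2 (Hspd1 and Hspb1) lower, where 9.93% and 8.74% of all genes in that fit were called higher and lower. Counts this small show nothing particular to the chaperones.

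**Figure D1:**
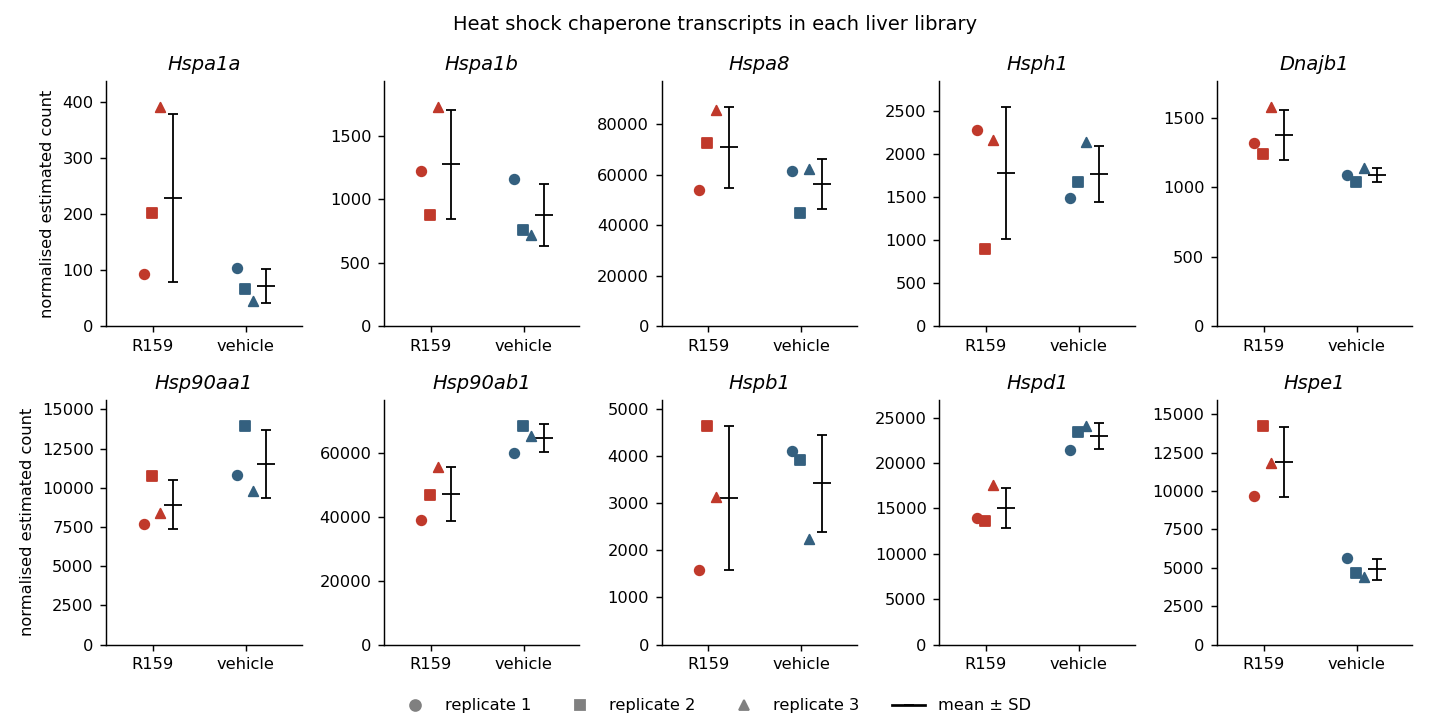
Normalised estimated count (linear axis from 0) of each of the 10 genes in the 3 R159 and 3 vehicle libraries, with marker shape for the replicate and bars for mean ± SD. Hspe1 lies at 9659 or more in R159 and at 5659.8 or less in vehicle, Hspd1 at 17628 or less in R159 and at 21398 or more in vehicle, and Hspa1a spreads from 92.7 to 391 within R159.

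Hspe1 encodes HSP10, the ring that caps the mitochondrial chaperonin. Its values were 9659, 14245.5 and 11796 in the R159 libraries, in the order of replicates 1 to 3 used throughout, against 5659.8, 4646 and 4395 in the vehicle libraries. The lowest R159 library was above every vehicle library. The means were 11899.9 ± 2295 in R159 and 4900.4 ± 669.5 in vehicle livers (SD, n = 3 each), and the log2 fold change was 1.27 (SE 0.19, 95% interval 0.85 to 1.70, limma adjusted p = 0.00409). The call held under all 18 other settings, with adjusted p from 0.00136 to 0.0441.

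Hspd1 encodes HSP60, the barrel in which mitochondrial proteins fold. The R159 libraries had 13947, 13658 and 17628, and the vehicle libraries 21398, 23430.4 and 24115. Each R159 library was below each vehicle library. Hspd1 fell to 15077.5 ± 2213 in R159, against 22981 ± 1413 in vehicle livers (SD, n = 3 each; log2 fold change -0.62, SE 0.17, 95% interval -1.01 to -0.22, limma adjusted p = 0.0301). The call was lost without R159 replicate 2 (-0.55, adjusted p = 0.0677), without vehicle replicate 1 (-0.67, 0.0694), without vehicle replicate 2 (-0.60, 0.123), without vehicle replicate 3 (-0.58, 0.102) and without the empirical Bayes trend (-0.62, 0.0576).

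HSP60 and HSP10 work as 1 complex, and their transcripts are read from a shared interval, so their ratio within each library was computed. Hspe1 over Hspd1 was 0.693, 1.04 and 0.669 in R159 libraries, against 0.264, 0.198 and 0.182 in vehicle libraries. The ratio was 0.802 ± 0.209 in R159 and 0.215 ± 0.0436 in vehicle livers (SD, n = 3 each), a geometric mean 3.70-fold higher in R159. The groups did not overlap, and an exact two-sided permutation test gave p = 0.1, the smallest that 3 against 3 can give. Each R159 library was above every vehicle library for Hspe1 and below every one for Hspd1. That alone fixes this outcome, so the test adds no evidence beyond the values of the separate genes. Across the 6 libraries the log2 values of the pair had Pearson's r = -0.912, a description in which the group difference and library scaling are shared.

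**Figure D2:**
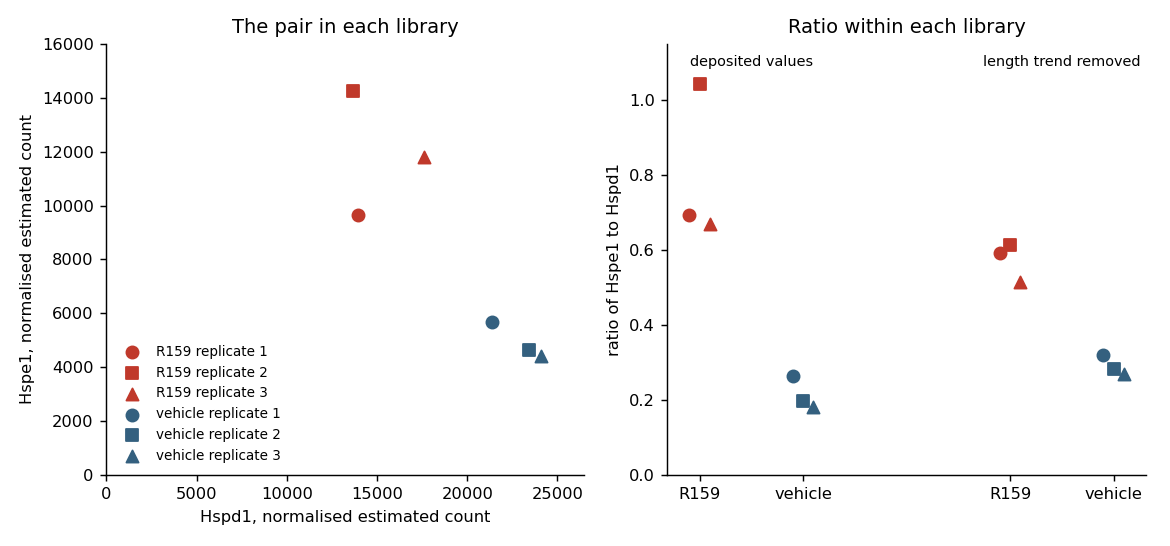
Left, Hspe1 against Hspd1 (both as normalised estimated count) in the 6 libraries; right, the ratio of Hspe1 to Hspd1 in each library, from the deposited values and with the transcript length trend removed, R159 red and vehicle blue. The R159 ratios lie at 0.669 to 1.04 and the vehicle ratios at 0.182 to 0.264, and with the length trend removed at 0.513 to 0.614 and 0.270 to 0.319.

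Transcript length moved with the Hspe1 result. The longest coding transcript is 774 nt for Hspe1 and 2423 nt for Hspd1. Among coding genes of 204 to 1295 nt, 48.3% were called higher in R159 and 0.635% lower, and their median log2 fold change was 0.70. Among those of 2209 to 2672 nt, where Hspd1, Hspa8 and Hsp90ab1 lie, 10.5% were called higher and 11% lower, and the median was -0.02. The shares were 8.43% higher and 16.8% lower in the bin of Hspa1a, Hspa1b and Dnajb1, 6.08% and 22.1% in that of Hsp90aa1, and 5.53% and 27.1% in that of Hsph1. Over all genes in the fit with the trend removed, 18.7% were called. With the length trend removed, Hspe1 had a log2 fold change of 0.39 (SE 0.11, limma adjusted p = 0.0441) and Hspd1 of -0.59 (SE 0.14, adjusted p = 0.0252). The ratio of Hspe1 to Hspd1 was then 0.591, 0.614 and 0.513 in R159 and 0.319, 0.283 and 0.270 in vehicle libraries, a 1.97-fold difference of geometric means (exact permutation p = 0.1). Both genes were called in opposite directions in this fit too, so the ratio is not separate evidence. Hspd1-ps3, a pseudogene copy of Hspd1 picked out after its values were seen, had 336 ± 78.4 in R159 and 682 ± 41.8 in vehicle livers (SD, n = 3 each; log2 fold change -1.04, limma adjusted p = 0.0105). Reads of a gene and its copy may be divided uncertainly.

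**Figure D3:**
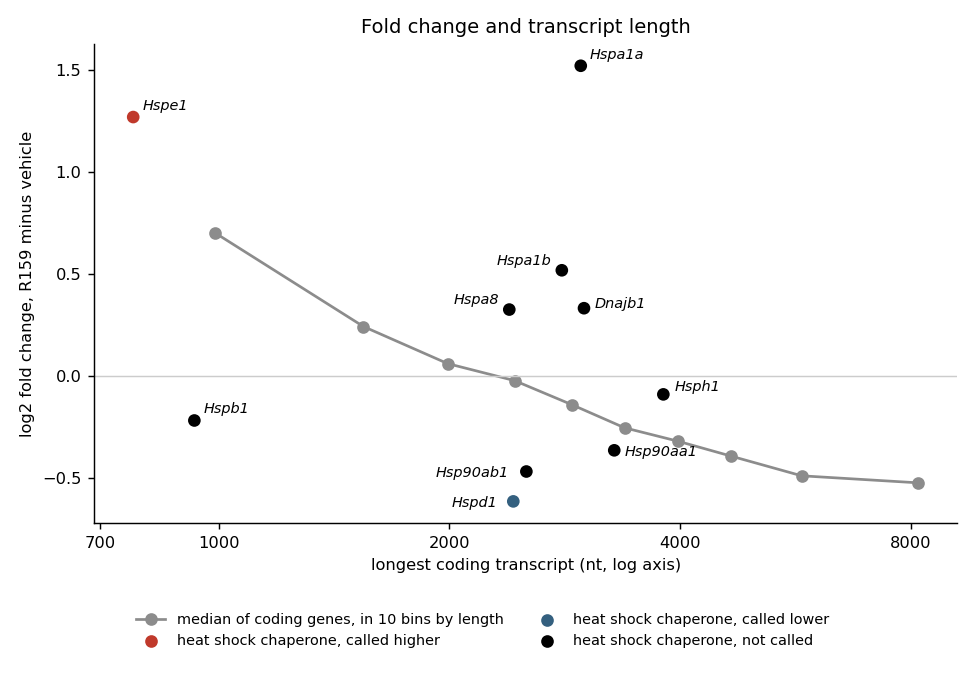
Log2 fold change (R159 minus vehicle) of the 10 genes against the longest coding transcript (nt, log axis), with the median of all coding genes in 10 bins of equal gene number placed at each bin's median length. Hspe1 (774 nt, 1.27) and Hspb1 (930 nt, -0.22) share the bin of shortest transcripts, whose median is 0.70.

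HSP70 proteins of the cytosol come from Hspa8, which is expressed all the time, and from the stress-inducible pair Hspa1a and Hspa1b. Hspa8 had 53962, 72507 and 85643 in R159 libraries and 61279, 44627.5 and 62271 in vehicle libraries. The groups overlapped, and the log2 fold change was 0.33 (SE 0.25, 95% interval -0.25 to 0.90, limma adjusted p = 0.361). Small nucleolar RNA genes (Snord14c, Snord14d and Snord14e) lie inside Hspa8.

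Hspa1b had 1222.5, 871 and 1722.5 in R159 libraries and 1157, 752 and 716 in vehicle libraries, with overlapping groups (log2 fold change 0.52, SE 0.28, limma adjusted p = 0.190). Hspa1a was the lowest of the 10 genes, at 92.7, 203 and 391 in R159 and 104, 65.6 and 44.1 in vehicle libraries. R159 replicate 1 lay below vehicle replicate 1, and R159 replicate 3 was the highest for both genes of the pair. The Hspa1a difference was the largest in size among the 10 genes but not called (1.52, SE 0.52, 95% interval 0.34 to 2.71, limma adjusted p = 0.0585), and it was called without R159 replicate 1 (2.05, adjusted p = 0.0142) and with sample weights (1.845, 0.0141).

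Reads as short as these 50 bp ends often fit both copies: of all 50-base stretches of the Hspa1a and Hspa1b transcripts, 58.8% and 62.3% occur in the other. The sum of the pair is therefore the safer value. It was 1315, 1074 and 2113 in R159 libraries and 1262, 818 and 761 in vehicle libraries (1501 ± 544 and 947 ± 274, SD, n = 3 each). R159 replicate 2 lay below vehicle replicate 1, and the mean log2 difference of 0.64 had an exact two-sided permutation p = 0.2, where 0.1 is the smallest possible.

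Hsph1 encodes HSP110, which exchanges nucleotide on HSP70. Its values were 2277, 899 and 2164 in R159 and 1495, 1676 and 2136 in vehicle libraries. R159 replicate 2 was the lowest of all 6 libraries and R159 replicate 1 the highest. The log2 fold change was -0.09 (SE 0.33, limma adjusted p = 0.860), and its sign was positive under 5 of the 18 settings, among them without R159 replicate 2 (0.34, adjusted p = 0.213).

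Dnajb1, the J-domain partner that HSF1 induces with HSP70, had 1318, 1235 and 1575 in R159 libraries against 1089, 1036 and 1139 in vehicle libraries. Every R159 library was above every vehicle library, by a small margin. The means were 1376 ± 177 and 1088 ± 51.4 (SD, n = 3 each; log2 fold change 0.33, SE 0.16, 95% interval -0.03 to 0.69, limma adjusted p = 0.147). With the length trend removed it was called (0.48, SE 0.14, adjusted p = 0.0428).

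The HSP90 genes of the cytosol were Hsp90aa1, the inducible form, and Hsp90ab1, the constitutive one. Hsp90ab1 had 38800.3, 46664 and 55569.8 in R159 libraries and 59783, 68429.8 and 65278 in vehicle libraries. All R159 libraries lay below the vehicle range, but the difference was not called (log2 fold change -0.47, SE 0.21, 95% interval -0.95 to 0.01, limma adjusted p = 0.131). It was called after quantile normalisation (-0.53, adjusted p = 0.0386) and after scaling to equal totals (-0.68, 0.0239). That last scaling moved the median of all genes to -0.21.

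Hsp90aa1 had 7699, 10721 and 8370.0 in R159 libraries and 10808, 13956 and 9795 in vehicle libraries. R159 replicate 2 lay inside the vehicle range (log2 fold change -0.37, SE 0.20, 95% interval -0.81 to 0.08, limma adjusted p = 0.191). The inducible form was 0.193 ± 0.0399 of the constitutive one in R159 and 0.178 ± 0.0270 in vehicle livers (SD, n = 3 each; exact two-sided permutation p = 0.7, smallest possible 0.1), so no shift between the HSP90 forms was detectable with 3 libraries a group.

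Hspb1 encodes the small heat shock protein HSP25 of the mouse. The R159 libraries held 1580.1, 4639 and 3123, and the vehicle libraries 4110.2, 3918 and 2242. The R159 group held both the lowest and the highest library (log2 fold change -0.22, SE 0.38, limma adjusted p = 0.690). The transcript of 930 nt is short, and with the length trend removed the difference was -0.94 (SE 0.28, adjusted p = 0.0496), just past the threshold. Without R159 replicate 1 the sign turned (0.20, adjusted p = 0.622).

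**Figure D4:**
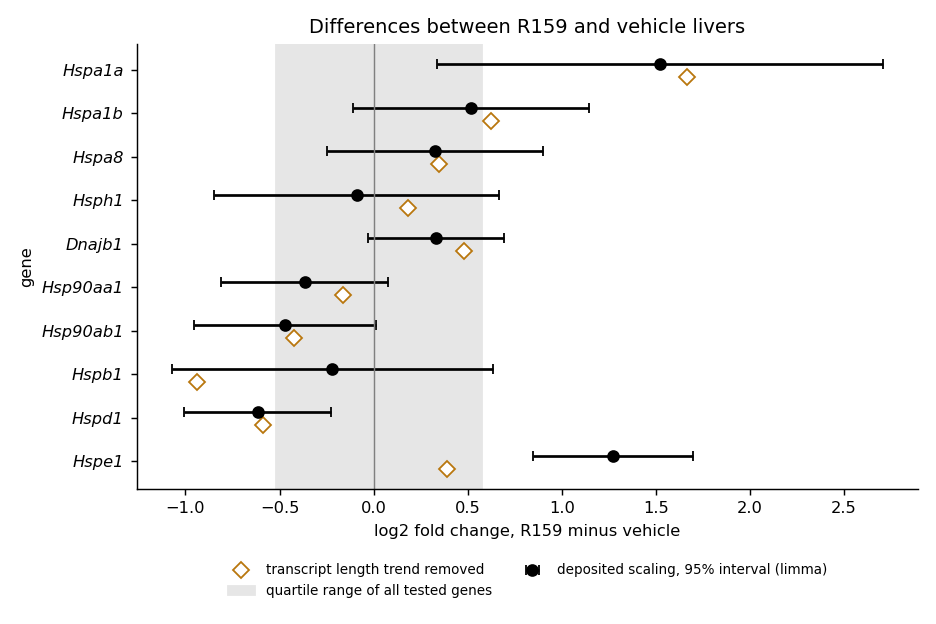
Log2 fold change (R159 minus vehicle, horizontal axis) of the 10 genes with limma's 95% interval (black) and the value with the transcript length trend removed (open diamonds); the grey band runs from the lower to the upper quartile of all tested genes, -0.52 to 0.57. The intervals of Hspe1 (0.85 to 1.70) and Hspd1 (-1.01 to -0.22) lie on opposite sides of 0. That of Hspa1a (0.34 to 2.71) also lies above 0, without a call after adjustment.

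Per kilobase of the longest coding transcript, the levels differed widely. In R159 livers the order was Hspa8 (mean level 29534 per kb), Hsp90ab1 (18655), Hspe1 (15375), Hspd1 (6223), Hspb1 (3348), Hsp90aa1 (2722), Hsph1 (468), Dnajb1 (459), Hspa1b (454) and Hspa1a (77.1). In vehicle livers it was Hsp90ab1 (25594), Hspa8 (23417), Hspd1 (9485), Hspe1 (6331), Hspb1 (3681), Hsp90aa1 (3511), Hsph1 (465), Dnajb1 (363), Hspa1b (312) and Hspa1a (24.0). Hspe1 stood above Hspd1 per kb in all R159 libraries and below it in all vehicle libraries. Hspa8 and Hsp90ab1 did not overlap in R159, with 22541 to 35774 and 15397 to 22052 per kb, and overlapped in vehicle livers. Levels of Hspb1 and Hsp90aa1 overlapped in both groups, and so did those of Dnajb1 and Hspa1b.

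The 6 inducible genes Hspa1a, Hspa1b, Dnajb1, Hsph1, Hsp90aa1 and Hspb1 were averaged on the log2 scale, each around its own mean. They did not share one pattern. Pearson's r between pairs of them ran from -0.79 (Hsp90aa1 and Dnajb1) to 0.80 (Hspa1b and Dnajb1). Hspa1a, which ranged most widely (44.1 to 391), weighs most in the average. The average was -0.14, 0.06 and 0.50 in the R159 libraries (replicates 1 to 3) and 0.04, -0.11 and -0.35 in the vehicle libraries. R159 replicate 3 was highest and vehicle replicate 3 lowest, while R159 replicate 1 lay below vehicle replicates 1 and 2. Among tested genes outside all lists, the 6 whose log2 values followed this average best over the 6 libraries included Rpl9-ps7 (Pearson's r 0.992), Crlf2 (0.990), Gm10157 (0.985), Ttc39c (0.981) and Gm49395 (0.977). With 6 libraries and so many genes, such values are a description only. Some of these genes were low, such as Gm10157 at 7.44 to 21.7. Among the 10 genes themselves, Hsp90ab1 and Hspd1 were most alike (r = 0.940), and Hspd1 and Hspe1 least (r = -0.912).

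The wider chaperone network held 143 further tested genes on 10 lists, of which 14 (9.79%) were called higher and 19 (13.3%) lower, against 12.8% and 14.2% of all tested genes. Their median log2 fold change was 0.02. With the length trend removed 12 of 142 (8.45%) were higher and 10 (7.04%) lower, against 9.93% and 8.74% of all genes in that fit. The counts of single lists below are to be read against these same shares of all genes, and no list was tested as a set.

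Of 8 tested heat shock factors and their modifiers, 1 was called higher and 0 lower. It was Hsbp1, which encodes a small protein that binds HSF1 and was at 7309 ± 1674 in R159 and 4423 ± 563 in vehicle livers (SD, n = 3 each; log2 fold change 0.71, limma adjusted p = 0.0269; 0.22 and 0.268 with the length trend removed). Hsf1 itself had 1181, 1267 and 1042 in R159 against 715, 928 and 792 in vehicle libraries. Its groups did not overlap, but it missed the threshold (0.52, SE 0.17, limma adjusted p = 0.0507). Hsf2 gave 0.39 (adjusted p = 0.180).

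Of 17 other genes that HSF1 induces, 0 were called higher and 3 lower. Bag3, a partner of HSP70 that directs clients to autophagy, fell to 2114 ± 326 in R159, against 3184 ± 535 in vehicle livers (SD, n = 3 each; log2 fold change -0.59, limma adjusted p = 0.0436). Hspa4l, an HSP110 relative, and Zfand2a, a gene of arsenite and heat stress, had log2 fold changes of -0.72 and -0.88 (adjusted p = 0.0158 and 0.0302 by limma). None of these 3 was called with the length trend removed (adjusted p = 0.0638, 0.426 and 0.0718 for Bag3, Hspa4l and Zfand2a), and then 3 others, Chordc1, Dnaja1 and Tcp1 (named after their values were seen), were called higher. Stip1, which hands clients from HSP70 to HSP90, gave 0.10 (adjusted p = 0.707), and the small heat shock protein gene Cryab gave 0.73 (adjusted p = 0.0922).

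The mitochondrial list holds the partners of HSP60. Of its 18 genes 4 were called higher and 5 lower, beside 12.8% and 14.2% of all tested genes. With the length trend removed 2 were higher and 3 lower, beside 9.93% and 8.74% of all genes in that fit. Hspa9, the mitochondrial HSP70, had 16575, 12666 and 18487 in R159 libraries and 29341, 31089.6 and 33239 in vehicle libraries. Every R159 library was below every vehicle library (log2 fold change -0.99, SE 0.19, limma adjusted p = 0.00803; -0.83 and 0.0130 with the length trend removed). The protease genes Spg7 and Lonp1 were lower as well (-0.90 and -0.61, adjusted p = 0.00531 and 0.0158), and both kept their calls with the trend removed (adjusted p = 0.00915 and 0.0243).

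Higher in the same list were Grpel1, the nucleotide exchange factor of mitochondrial HSP70, and Dnajc19, a J-domain protein of the inner membrane import motor. Grpel1 had 9171 ± 1616 in R159 and 5348 ± 383 in vehicle livers (SD, n = 3 each; log2 fold change 0.77, limma adjusted p = 0.0132; 1.01 and 0.00759 with the length trend removed). Dnajc19 had 4026 ± 847 and 2292 ± 189.7 (0.79, adjusted p = 0.0141; 0.84 and 0.0106). Hscb, a J-domain protein of iron-sulphur cluster assembly, was also higher (1.01, adjusted p = 0.0245), but not with the trend removed (0.16, adjusted p = 0.569). The Hspa9 call held under all 18 settings, the Grpel1 call under 15 and the Dnajc19 call under 16. Some calls of named genes held less often, such as Hscb and Hsbp1 under 12 of 18 settings. Dnajb9 and Zfand2a held under 11, Hspb6 under 10 and Bag3 under 9.

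Of 40 tested J-domain genes 5 were called higher and 7 lower, and 5 and 2 with the length trend removed. The higher calls then included Dnaja1 and Dnajc12 in place of Hscb and Dnajc4 (Dnaja1, Dnajc12 and Dnajc4 being named after their values were seen). Dnajc15, a J-domain protein of mitochondria, had 3378, 5015 and 2977 in R159 libraries and 1518, 1053 and 909 in vehicle libraries, with no overlap (log2 fold change 1.70, SE 0.25, limma adjusted p = 0.00402). Dnajc13, Gak and Dnajc16 had log2 fold changes of -0.93, -1.06 and -0.87 (by limma, adjusted p = 0.00548, 0.00815 and 0.0114). DNAJC13 and GAK work on endosomes and clathrin coats rather than in the folding of heat-damaged protein. Of these genes Dnajc15 and Gak kept their calls with the length trend removed. Dnajc15 then stood at 2.19, a value that rests on its longest coding transcript of 6193 nt.

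Of 11 tested genes of the wider HSP70 and HSP110 families 0 were higher and 3 lower, Hspa9, Hspa4l and Hspa13, the last an HSP70 relative of microsomes (log2 fold change -0.95, limma adjusted p = 0.0170; -0.62 and 0.0577 with the length trend removed, where Hspa9 alone of the 11 was called). Among 13 nucleotide exchange and partner factors 1, Grpel1, was higher and 2 lower (1 and 1 with the length trend removed). St13, which encodes the HSP70-interacting protein HIP, had 5577 ± 476 in R159 and 9701 ± 480.0 in vehicle livers (SD, n = 3 each; -0.80, adjusted p = 0.00674; -0.59 and 0.0129 with the length trend removed). Among 25 HSP90 cochaperones 0 were higher and 1 lower, and with the length trend removed 4 were higher (Ahsa2, Cdc37l1, Chordc1 and Sugt1, named after their values were seen) and 1 lower. The lower one in both fits was Fkbp5, which glucocorticoids induce, with 634, 485 and 505 in R159 libraries and 1146, 1157 and 1269 in vehicle libraries (-1.15, SE 0.17, limma adjusted p = 0.00425; -0.86 and 0.00738 with the length trend removed).

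Prefoldin and the cytosolic chaperonin TRiC fold actin and tubulin. Of their 14 genes 4 were called higher, all for prefoldin subunits with short transcripts, and 0 lower. Of 13 with a length, 2 (Pfdn5 and Tcp1) were higher once the length trend was removed. Pfdn5 had 8345, 15519.7 and 8981 in R159 libraries and 3957, 2769.7 and 2612 in vehicle libraries (log2 fold change 1.78, limma adjusted p = 0.00402; 1.18 and 0.00581 with the length trend removed). Pfdn4 and Pfdn1 gave 1.17 and 0.85 (adjusted p = 0.0243 and 0.0136) and were not called with the trend removed (0.131 and 0.141). Of 5 genes measured on the list of other small heat shock proteins 2 were higher, and neither with the trend removed. They were Hspb11 (1.46, limma adjusted p = 0.00710) and Hspb6 (0.60, adjusted p = 0.0382). No value here shows that Hspb11 encodes a small heat shock protein.

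In the endoplasmic reticulum list 0 of 18 genes were higher and 3 lower: the lectin chaperone gene Canx (-1.17, limma adjusted p = 0.00402), Dnajc3 (-0.81, adjusted p = 0.0161) and Dnajb9 (-0.56, adjusted p = 0.0307). With the length trend removed Canx and Dnajb9 kept their calls (-0.84 and -0.53, adjusted p = 0.00588 and 0.0382) and Dnajc3 did not (-0.39, adjusted p = 0.145), while Pdia6 and Creld2, named after their values were seen, were then called lower. The main HSP70 and HSP90 of that compartment, Hspa5 and Hsp90b1, gave -0.17 and -0.36 (adjusted p = 0.590 and 0.274).

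**Figure D5:**
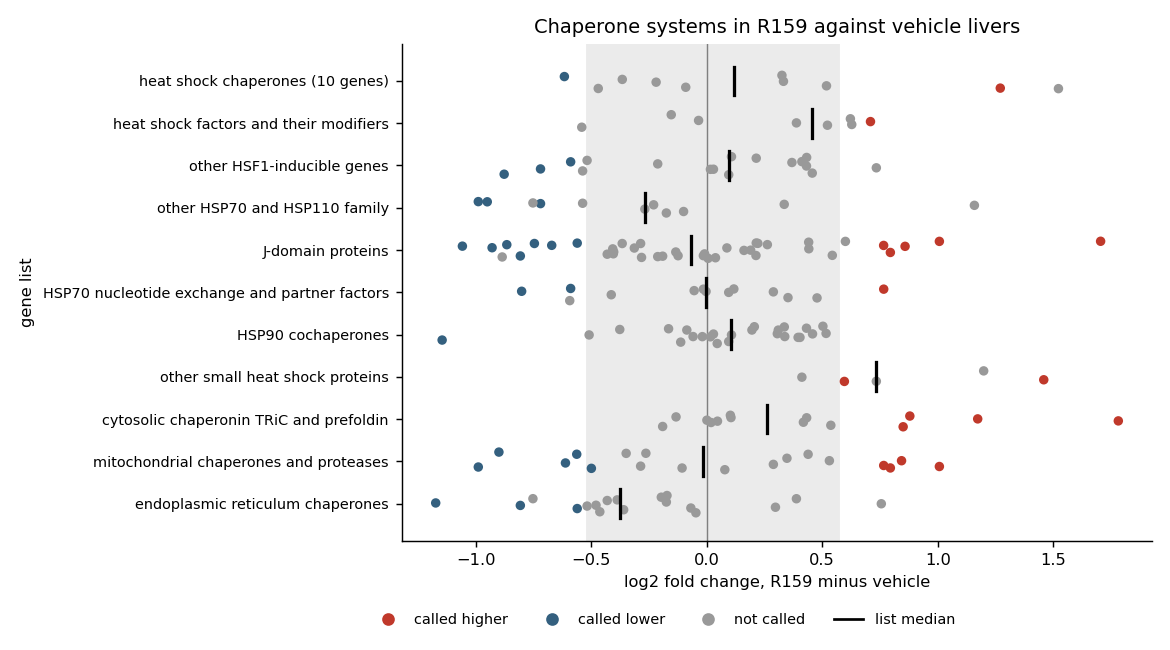
Log2 fold change (R159 minus vehicle) of every tested gene in each chaperone list, red for called higher, blue for called lower and grey for not called, with black bars at list medians and a grey band for the quartile range of all tested genes. Calls of both directions lie in the J-domain and mitochondrial lists, and the medians run from -0.37 in the endoplasmic reticulum list to 0.73 in the list of other small heat shock proteins.

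Genes that respond quickly to handling, feeding time and temperature were looked at beside the chaperones. Of 13 immediate early genes 1, Zfp36, was called higher and 2, Egr1 and Klf6, lower, with summed levels of 17704 to 24272 in R159 and 16544 to 21734 in vehicle livers. Over all tested genes 12.8% were called higher and 14.2% lower (9.93% and 8.74% with the length trend removed). After removal of the length trend Zfp36 kept its call, Egr1 and Klf6 did not (-0.49 and -0.64, limma adjusted p = 0.225 and 0.0907), and Ier3 was called lower; these genes were named after their values were seen. Fos had 133 ± 15.5 and 165 ± 35.5 (SD, n = 3 each; limma adjusted p = 0.45). Of 12 temperature-responsive and clock genes 1, the clock gene Per2, was higher (0.62, limma adjusted p = 0.0262) and 0 lower, with 2 higher once the length trend was removed (Per2 and Per3, Per3 being named after its values were seen), and the cold-inducible Cirbp gave 0.19 (adjusted p = 0.488). Their part in the chaperone values was not tested.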

How the data were processed

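Poly(A) RNA of mouse liver was sequenced as 6 stranded paired-end libraries with 50 bp reads, per the labels' protocols. Per the submitters' processing notes the build was mm39, and the tools named were STAR 2.7.8a, R 4.2.3, DESeq2 (version written as 3.5), FastQC 0.11.9 and cutadapt, without their roles. No source used here names the counter, the annotation or a gene filter. Each deposited table holds a signal for 1 library, namely estimated gene counts that, from the values, were divided by a single factor for that library. Low values clustered at multiples of 1 step, which gave the estimated depth; below 200 reads, 67.8% to 76.2% of values came within 0.02 of a whole number, and a count model was therefore not fitted. Rows with a mean of at least 10 were kept, and log2(value + 1) was tested with limma 3.58.1 under R 4.3.3 (group as sole term, moderated variances with a mean trend, Benjamini-Hochberg adjustment, threshold 0.05), which understates changes of low genes. Transcript length was the longest coding transcript in GENCODE M21 (13501 tested genes, 81.4%), and its trend was removed per library by lowess (span 0.3). Whether the longest transcript was the one expressed was not tested, and calls with the trend removed depend on that choice. Promoter windows were RefSeq's, on GRCm38.p6. Ratios were tested by exact permutation in SciPy 1.17.1. Genes named outside the 10 were fixed ones and, per list and direction, up to 3 called genes of smallest adjusted p without overlap, plus the 6 of most similar pattern, and some results under this rule are left out here; genes named in further counts were chosen after their values were seen. The members and all lists were chosen with earlier results of these data known. The fit was tested on simulated data. Figures were drawn with matplotlib 3.10.9. Alternatives tried were other scaling, filters and pseudocounts, a replicate block, sample weights, other variance moderation, summed Hspa1 genes, removal of the length trend and leaving out each library.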

Additional observations from a re-analysis of the deposited data

How the results depend on the processing

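Of all tested genes 4479 were called; 2520 were called with the length trend removed (1340 higher, 1180 lower), and 1854 to 5420 with 1 library left out. Lower calls came to 1443 without the empirical Bayes trend, and scaling to equal totals gave 1174 higher and 2906 lower. Among the 10 chaperones, called genes higher numbered 3 with sample weights (15.8% of all tested genes) and 2 with the length trend removed (9.93%). With 1 library left out they numbered 1 to 2 (5.54% to 15.2% of all tested genes). Those called lower numbered 2 after quantile normalisation, equal totals or removal of the length trend (13.8%, 17.5% and 8.74% of all tested genes). They numbered 0 without the empirical Bayes trend (8.70%) and 0 to 1 with 1 library left out (5.63% to 17.5%). On the 10 other chaperone lists (143 tested genes), higher calls were 26 after quantile normalisation and 7 with equal totals (12.5% and 7.07% of all tested genes). They were 8 without the empirical Bayes trend and 26 with sample weights (9.90% and 15.8%). With 1 library left out they ran from 3 to 31 (5.54% to 15.2%). Lower calls were 34 with equal totals and 12 without the empirical Bayes trend (17.5% and 8.70%). They were 10 of 142 with the length trend removed (8.74%), and 8 to 20 with 1 library left out (5.63% to 17.5%). Library-out ranges over all genes were 920 to 2516 higher and 934 to 2904 lower. Signs that turned, all uncalled, were those of Hspb1 without R159 replicate 1 (0.204; -0.573 to 0.204 with 1 library left out), Hsph1 after quantile normalisation (0.04), with sample weights (0.051), with the length trend removed (0.183), without R159 replicate 2 and without vehicle replicate 3 (0.344 and 0.053; -0.326 to 0.344 with 1 library left out), Hspa5 with the length trend removed (0.083) and without vehicle replicate 3 (0.039; -0.343 to 0.039), Stip1 with equal totals (-0.114) and without R159 replicate 2 (-0.016; -0.016 to 0.223), and Cirbp with equal totals (-0.023) and the length trend removed (-0.218). The causes were not tested. Replicate numbers showed no clear pairing of the libraries. Deviations of equal numbers correlated at -0.0981, 0.0314 and 0.108, and only replicate 3 correlated best with its own number. The deviations were centred within each small group, so this check cannot exclude pairing. With the replicate block 3945 genes were called, and the Hspe1 and Hspd1 calls held (adjusted p = 0.00715 and 0.0402).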
